A study of Mus musculus with 14 samples.

Results

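The 10 genes described here encode regulators of chromatin that are recurrently altered in lymphomas of germinal centre (GC) origin, or that act directly with such regulators: Ezh2, Eed, Suz12, Kmt2d, Setd1b, Crebbp, Ep300, Hdac3, Kdm1a and Arid1a. They were chosen by gene symbol from a table of 9969 genes, and 9 of the 10 had an entry there. All 9 passed the filter on low counts and were tested. Crebbp is not analysed here.

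Within a GC the dark zone (DZ) is where B cells proliferate and hypermutate their antibody genes, and the light zone (LZ) is where those that bind antigen best are selected with T cell help. Chromatin regulators hold the GC programme in place and let cells leave it. EZH2 silences genes by methylating histone H3 at lysine 27, BCL6 recruits HDAC3 to remove acetyl groups from enhancers, and CREBBP, EP300 and KMT2D mark the same enhancers for activity. In human follicular and diffuse large B cell lymphoma, EZH2 carries activating mutations, whereas KMT2D, CREBBP, EP300 and ARID1A are mostly lost.

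The cells were GC B cells of each zone, sorted from popliteal nodes of C57BL/6 chimeras (50% WT, 50% SykY317F cells) on day 14 after immunization with NP-KLH, a hapten coupled to a carrier protein. Syk is a tyrosine kinase that acts directly downstream of the antigen receptor, and SykY317F carries phenylalanine in place of a tyrosine. The 4 groups held 3 SykY317F LZ, 3 SykY317F DZ, 4 WT LZ and 4 WT DZ libraries. All cells thus came from immunized mixed chimeras, and how the genotypes were told apart at sorting is not stated in the labels. Nor do the labels say whether a group's libraries are from different mice, so p-values measure only the spread between these libraries, which may be technical.

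Low UMI totals limited the SykY317F LZ group most. Unique molecular identifier (UMI) totals were 149641 to 379125 in SykY317F LZ, 381954 to 1413310 in SykY317F DZ, 499443 to 1600902 in WT LZ and 747948 to 1767898 in WT DZ. The 3 SykY317F LZ libraries and SykY317F DZ replicate 4 stood apart, with 9.37 to 15.8 UMIs per 100 reads where the other libraries had 33.5 to 53.2. Levels are given in CPM, which scales the UMI counts of every library to the same total. A count of 3 UMIs corresponded to 8.95 to 18.8 CPM in SykY317F LZ and to 1.73 to 8.29 CPM elsewhere. Markers of GC B cells were present in every library, with 10 genes summing to 6160 to 11500 CPM. LZ markers summed to 2090 to 2170 CPM in SykY317F LZ, 1180 to 1640 CPM in SykY317F DZ, 1650 to 2050 CPM in WT LZ and 995 to 1270 CPM in WT DZ, without overlap between the zones of a genotype. DZ markers summed to 1330 to 1380 CPM in SykY317F LZ, 1360 to 1780 CPM in SykY317F DZ, 1060 to 1510 CPM in WT LZ and 2030 to 2170 CPM in WT DZ, so their sums overlapped between the SykY317F zones and not between the WT zones. Cxcr4, the receptor that draws cells to the DZ, named here after its values were seen, averaged 325 ± 139 CPM in SykY317F LZ, 276 ± 53.7 CPM in SykY317F DZ, 130 ± 40.6 CPM in WT LZ and 201 ± 85.8 CPM in WT DZ (SD, n = 3, 3, 4 and 4). Cxcr4 does not stand for its list. Of the 6 DZ markers, 1 was above 0 and 5 below in SykY317F LZ over SykY317F DZ (median log2 fold change -0.38). In WT LZ over WT DZ 0 were above 0 and 6 below (median -0.60).

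No chromatin regulator passed the threshold (edgeR quasi-likelihood test, Benjamini-Hochberg adjusted p under 0.05 over 7999 genes) between zones or genotypes. Between SykY317F LZ and SykY317F DZ 0 of 9 passed, against 0.0375% of all tested genes, and 1 of 9 had an unadjusted p under 0.05, against 10.3%. Between WT LZ and WT DZ 0 of 9 passed, against 0.188% of all genes, and 0 of 9 had an unadjusted p under 0.05, against 8.48%. With the zone effects of both genotypes averaged, which called 114 genes or 1.43%, 0 of 9 passed and 1 had an unadjusted p under 0.05, against 14.3%. Between genotypes, 0 of 9 passed in LZ, in DZ and over both zones, where 0% of all genes did. The counts of regulators with an unadjusted p under 0.05 were 3 in LZ, 1 in DZ and 3 over both zones, against 9.81%, 3.81% and 10.1% of all genes. For the difference between the SykY317F and WT zone effects 0 of 9 passed, against 0% of all genes, and 1 had an unadjusted p under 0.05, against 4.8%. DESeq2's Wald test and limma voom with sample quality weights also passed 0 of 9 in each of the 7 comparisons.

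The regulators were split between fitted changes above and below 0. In SykY317F LZ over SykY317F DZ, 3 regulators were above 0 and 6 below, where 46.7% of all genes were above, with a median log2 fold change of -0.24 against -0.04 over all genes. In WT LZ over WT DZ, 4 were above 0 and 5 below, where 48.3% of all genes were above, with a median of -0.19 against -0.02 over all genes. In SykY317F over WT, averaged over both zones, 2 were above 0 and 7 below, where 44.7% of all genes were above, with a median of -0.30 against -0.05 over all genes. In bulk libraries such as these, fewer cells of a type and less RNA per cell cannot be told apart.

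**Figure D1:**
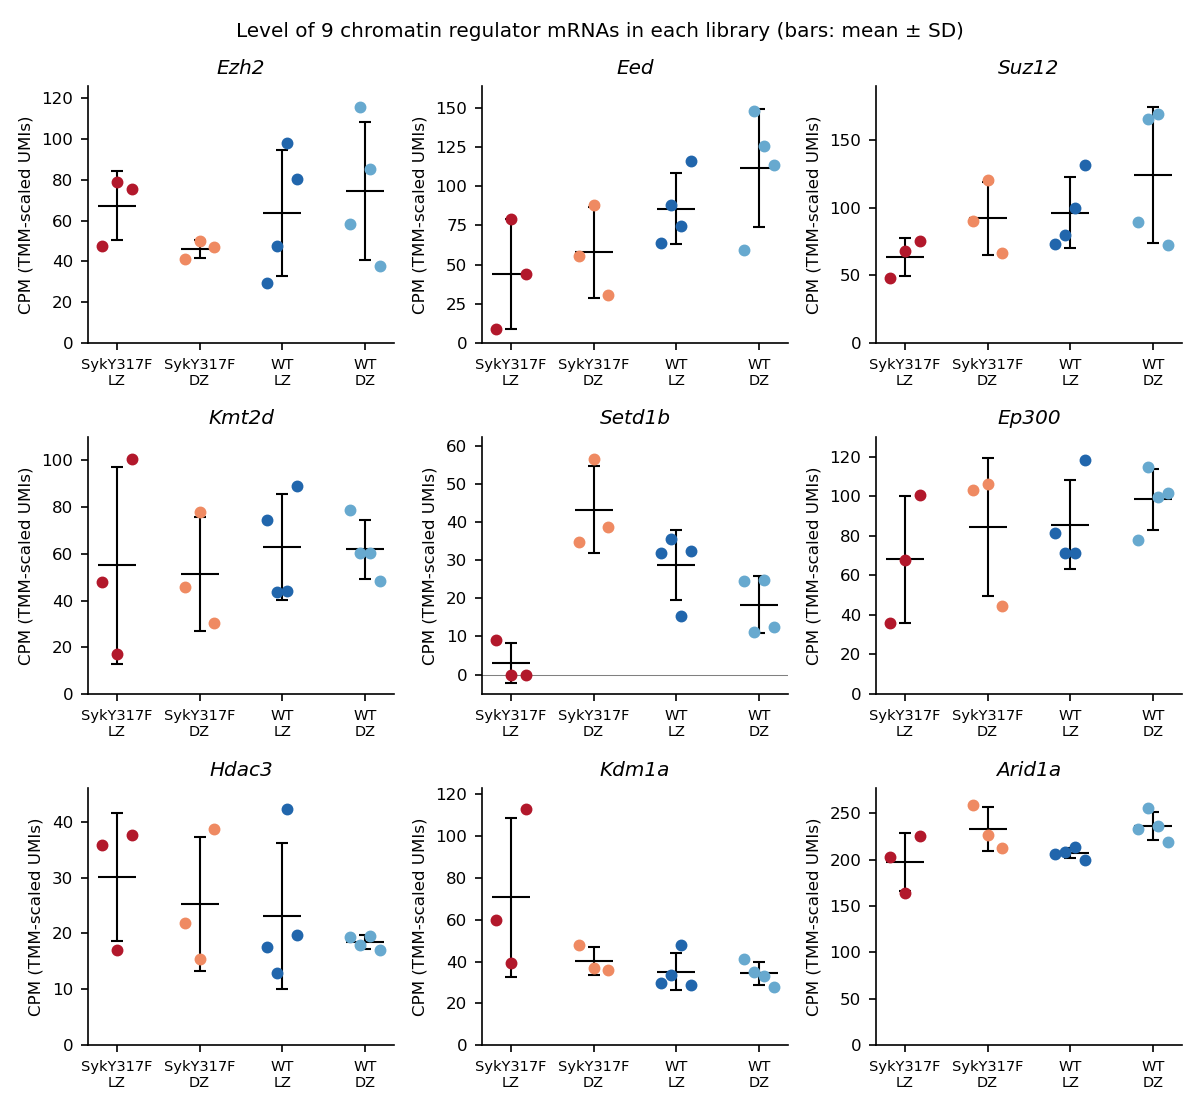
Level of each of the 9 regulators in CPM (vertical axes, TMM-scaled UMIs) in the 14 libraries, by genotype and zone. Coloured points are libraries and black bars are group means with SD. Setd1b is at 0, 0 and 8.95 CPM in SykY317F LZ, Arid1a stays between 164 and 259 CPM in all libraries, and most other groups overlap.

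The first regulators are the core of Polycomb repressive complex PRC2, in which Ezh2 is the methyltransferase, Eed binds the finished methyl mark and stimulates the enzyme, and Suz12 is the scaffold. Ezh2 (chromosome 6, 47530139 to 47595341, minus strand, GRCm38) did not differ detectably between zones in either genotype. It stood at 47.8, 79.0 and 75.3 CPM in SykY317F LZ replicates 1, 2 and 4, and at 41.4, 49.8 and 47.0 CPM in SykY317F DZ replicates 1, 2 and 4. In WT LZ replicates 1, 2, 3 and 5 it stood at 29.6, 47.5, 97.9 and 80.3 CPM, and in WT DZ replicates 2, 3, 4 and 5 at 58.2, 116, 85.4 and 37.7 CPM. The groups overlapped in every comparison, and the WT libraries of both zones were the more widely spread. Group means were 67.4 ± 17.1 CPM in SykY317F LZ, 46.1 ± 4.28 CPM in SykY317F DZ, 63.8 ± 30.9 CPM in WT LZ and 74.2 ± 33.8 CPM in WT DZ (SD, n = 3, 3, 4 and 4). The log2 fold change between zones was 0.51 ± 0.47 in SykY317F and -0.23 ± 0.35 in WT (SE). Averaged over both genotypes it was 0.14, with a 95% interval of -0.51 to 0.79 (adjusted p = 0.886). Between genotypes the DZ held the larger difference, -0.69 ± 0.39 (adjusted p = 0.9999), against 0.05 ± 0.44 in LZ (adjusted p = 0.985). These 2 differences were not shown to be unequal, since the difference of zone effects was 0.74 ± 0.58 (adjusted p = 0.999).

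Eed (chromosome 7, 89954654 to 89980983, minus strand) had lower mean levels in SykY317F than in WT in both zones. It was at 8.95, 79.0 and 43.9 CPM in SykY317F LZ, from 3, 14 and 7 UMIs, and at 55.2, 88.1 and 30.4 CPM in SykY317F DZ. In WT LZ it was at 63.6, 88.0, 74.9 and 116 CPM and in WT DZ at 59.5, 148, 126 and 114 CPM. SykY317F LZ replicate 1 and SykY317F DZ replicate 4 were the lowest, and the genotypes overlapped in both zones. Averaged over both zones the log2 fold change of SykY317F over WT was -1.01 ± 0.34 (unadjusted p = 0.00834), which did not pass after adjustment (adjusted p = 0.303). Its size depended on single libraries: the LZ value of -1.13 ± 0.53 was -0.50 without SykY317F LZ replicate 1 and -1.997 without SykY317F LZ replicate 2.

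Suz12 (chromosome 11, 79993106 to 80034123, plus strand) had the same order of group means as Eed, with wide overlap. Its levels were 47.8, 67.7 and 75.3 CPM in SykY317F LZ, 90.0, 120 and 66.3 CPM in SykY317F DZ, 73.5, 80.1, 99.8 and 132 CPM in WT LZ, and 89.3, 166, 169 and 72.2 CPM in WT DZ. The SykY317F LZ libraries were among the lowest of the 14, though the highest of them exceeded SykY317F DZ replicate 4, WT LZ replicate 1 and WT DZ replicate 5. The log2 fold change of SykY317F over WT, averaged over both zones, was -0.52 ± 0.25 (unadjusted p = 0.0468, adjusted p = 0.490). That of LZ over DZ, averaged over both genotypes, was -0.48 ± 0.25 (unadjusted p = 0.0623, adjusted p = 0.377). All 4 contrasts of Suz12 and of Eed had negative fitted values, whereas those of Ezh2 had both signs.

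The profile of Ezh2 over the 14 libraries was closest to those of Etf1, a translation termination factor (root mean square difference of centred log2 CPM 0.22), of Dusp16, a phosphatase of MAP kinases (0.24), and of 2810417H13Rik, which RefSeq names Pclaf, a PCNA-binding protein of S phase (0.28). Among the 5442 genes with at least 20 UMIs on average, its partner Suz12 ranked 187 (0.47) and its partner Eed ranked 4444 (0.89). This measure also grows with a gene's own spread, and the SD of log2 CPM was 0.513 for Suz12 and 0.966 for Eed. Arid1a, nearly constant over the libraries at an SD of 0.163, ranked 584 (0.55), ahead of Eed. The ranks of the 2 partners thus do not show how closely either tracked Ezh2 across these libraries, which also share depth.

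Kmt2d and Setd1b are methyltransferases of histone H3 lysine 4, Kmt2d acting mainly at enhancers and Setd1b mainly at promoters. Kmt2d (chromosome 15, 98831669 to 98871204, minus strand) showed no detectable difference. It was at 47.8, 16.9 and 100 CPM in SykY317F LZ, from 16, 3 and 16 UMIs, and at 45.7, 78.0 and 30.4 CPM in SykY317F DZ. In WT LZ it was at 74.6, 43.5, 44.2 and 88.9 CPM and in WT DZ at 79.0, 60.4, 60.5 and 48.4 CPM. All groups overlapped, and the SykY317F LZ libraries took both the lowest and the highest value of the 14. Averaged over both genotypes the log2 fold change of LZ over DZ was 0.02 with a 95% interval of -0.63 to 0.68 (adjusted p = 0.989).

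Setd1b (chromosome 5, 123142193 to 123168629, plus strand) had the most unequal levels among the regulators. It was nearly undetected in SykY317F LZ, with 3, 0 and 0 UMIs or 8.95, 0 and 0 CPM in replicates 1, 2 and 4. In SykY317F DZ it had 48, 84 and 14 UMIs, or 34.9, 56.5 and 38.7 CPM. In WT LZ it was at 31.8, 35.6, 15.4 and 32.3 CPM, and in WT DZ at 24.6, 11.2, 24.9 and 12.6 CPM. The 3 SykY317F LZ libraries lay below all others, the 3 SykY317F DZ libraries lay above all WT DZ libraries, and the WT zones overlapped. In SykY317F LZ replicates 2 and 4, however, 3 UMIs make 16.9 and 18.8 CPM, more than the lowest WT values of 11.2, 12.6 and 15.4 CPM. The 0 UMIs there thus do not exclude levels such as those. From lowest to highest the group means ran 2.98 ± 5.17 CPM in SykY317F LZ, 18.3 ± 7.46 CPM in WT DZ, 28.8 ± 9.10 CPM in WT LZ and 43.4 ± 11.6 CPM in SykY317F DZ (SD, n = 3, 4, 4 and 3). From WT DZ upward, neighbours in that order differed by less than their summed SDs. Non-overlap itself was common: 15.1% of all tested genes did not overlap between the SykY317F zones, 10.5% between the genotypes in LZ and 5.88% between the genotypes in DZ.

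Over the whole group, 3 UMIs in SykY317F LZ stood against 146 in SykY317F DZ, a ratio of 0.0987 after scaling for library size (95% counting interval 0.0201 to 0.294). Against the 129 UMIs of WT LZ the ratio was 0.145 (95% counting interval 0.0294 to 0.432). These exact binomial intervals cover counting error only. The fitted log2 fold change was -3.31 ± 0.73 for SykY317F LZ over SykY317F DZ, where Setd1b ranked 12 of 7999 genes by p (unadjusted p = 0.000194), yet did not pass (edgeR, adjusted p = 0.111). For SykY317F LZ over WT LZ it was -2.74 ± 0.74 (unadjusted p = 0.00127, adjusted p = 0.189), and for SykY317F DZ over WT DZ it was 1.28 ± 0.42 (unadjusted p = 0.0063, adjusted p = 0.776). In WT, LZ over DZ pointed the other way at 0.71 ± 0.40 (adjusted p = 0.657). The zone effect of SykY317F minus that of WT was -4.02 ± 0.84, the smallest p of all 7999 genes (unadjusted p = 0.000105), and it did not pass either (adjusted p = 0.535). The authors' deposited table gave -3.36 for SykY317F LZ over SykY317F DZ with an adjusted p of 0.0948, and 0 of the 9 regulators had an adjusted p under 0.05 in any of that table's 4 comparisons.

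The low UMI counts of SykY317F LZ leave the size of this difference loosely bounded. At the mean level of SykY317F DZ, the 3 SykY317F LZ libraries would hold 14.5, 7.68 and 6.91 Setd1b UMIs, against the 3, 0 and 0 observed. At the WT DZ level they would hold 6.14, 3.24 and 2.92 UMIs, so 0 UMIs in 1 library lies near the floor of 3 counts there. SykY317F LZ replicate 1 and SykY317F DZ replicate 4 had nearly the same depth (379125 and 381954 UMIs) and the same yield (15.8 and 15.6 UMIs per 100 reads), a pair compared for that reason after the values were seen. Setd1b had 3 UMIs from 11 reads in SykY317F LZ replicate 1 and 14 UMIs from 107 reads in SykY317F DZ replicate 4. Replicates 2 and 4 of SykY317F LZ had 0 reads of Setd1b. Without replicate 1 the group is at 0 UMIs, and no fold is given. Markers of other cells differed in the same direction as Setd1b in several comparisons. All 7 of 7 myeloid markers were detected in each group, none at 0 over a group, and they summed to 32.8 to 90.3 CPM in SykY317F LZ, 240 to 514 CPM in SykY317F DZ, 38.4 to 145 CPM in WT LZ and 75.1 to 356 CPM in WT DZ. Of 6 tested, 0 were above 0 and 6 below in SykY317F LZ over SykY317F DZ (median log2 fold change -2.71). In SykY317F LZ over WT LZ 1 was above 0 and 5 below (median -1.26). In SykY317F DZ over WT DZ 6 were above 0 and 0 below (median 1.59). In WT LZ over WT DZ 3 were above 0 and 3 below (median 0.10). In each of these contrasts 0 of 6 passed. T cell markers, of which 6 of 7 had an entry and none was at 0 over a group, summed to 53.7 to 124 CPM in SykY317F LZ, 79.9 to 194 CPM in SykY317F DZ, 57.6 to 157 CPM in WT LZ and 20.9 to 58.7 CPM in WT DZ. The 4 tested T cell markers had the sign of Setd1b in each of 4 contrasts, with median log2 fold changes of -1.62 for SykY317F LZ over SykY317F DZ, 1.31 for WT LZ over WT DZ, -0.99 for SykY317F LZ over WT LZ and 2.09 for SykY317F DZ over WT DZ, and 0 of 4 passed. Markers of naive and memory B cells, with 7 of 7 detected in each group, summed to 1880 to 2260 CPM in SykY317F LZ, 1170 to 2030 CPM in SykY317F DZ, 896 to 1950 CPM in WT LZ and 545 to 1020 CPM in WT DZ. In SykY317F DZ over WT DZ all 7 were above 0 (median 1.65) and 0 passed. In WT LZ over WT DZ all 7 were also above 0 (median 1.18) and 0 passed. These medians had the sign of Setd1b. In SykY317F LZ over SykY317F DZ 4 were above 0 and 3 below (median 0.30). In SykY317F LZ over WT LZ 6 were above 0 and 1 below (median 0.27). The last 2 medians had the sign opposite to Setd1b. The median sum of these markers was highest in SykY317F LZ (1990 CPM), where Setd1b was lowest. The part of any of these cells, or of the low UMI yield, in the Setd1b values was not tested. Setd1b also overlaps Gm26745 on the opposite strand, and whether counting used strand is not stated.

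**Figure D2:**
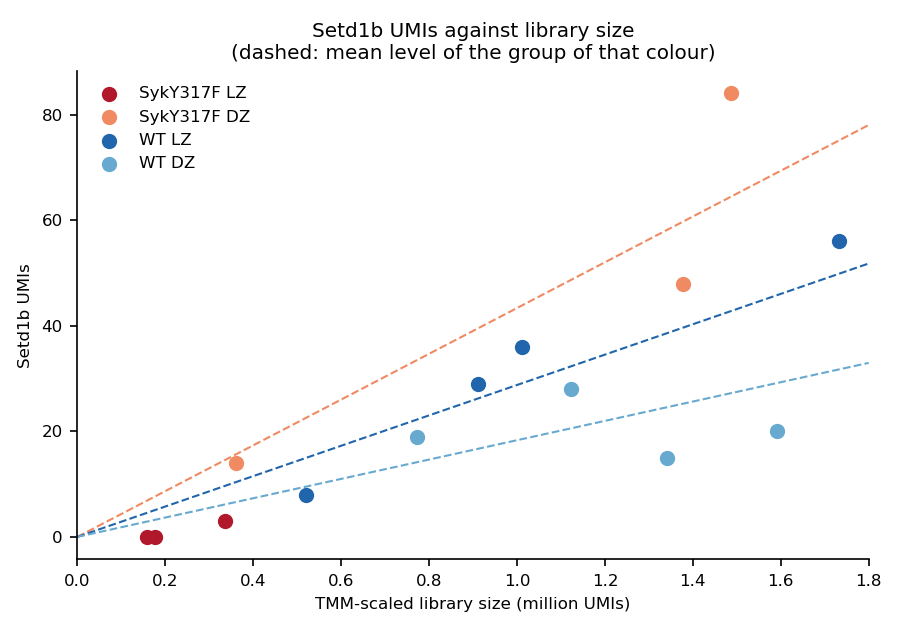
Setd1b UMIs in each of the 14 libraries (vertical axis) against TMM-scaled library size (horizontal axis). Dashed lines show the UMIs that the mean levels of SykY317F DZ (43.4 CPM), WT LZ (28.8 CPM) and WT DZ (18.3 CPM) would give at each size. The 3 SykY317F LZ libraries, at 3, 0 and 0 UMIs, lie below all 3 lines.

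Ep300 and Hdac3 have opposite activities on histone acetylation. Ep300 (chromosome 15, 81585351 to 81652077, plus strand), the acetyltransferase closely related to Crebbp, was at 35.8, 67.7 and 100 CPM in SykY317F LZ and at 103, 106 and 44.2 CPM in SykY317F DZ. In WT LZ it was at 81.2, 71.2, 71.0 and 118 CPM and in WT DZ at 77.7, 115, 99.7 and 102 CPM. The groups overlapped in all comparisons, with low values in SykY317F LZ replicate 1 and SykY317F DZ replicate 4. The log2 fold change of LZ over DZ, averaged over both genotypes, was -0.32 ± 0.24 (adjusted p = 0.583), and that of SykY317F over WT, averaged over both zones, was -0.30 ± 0.24 (adjusted p = 0.722).

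Hdac3 (chromosome 18, 37935844 to 37955016, minus strand), a catalytic subunit of corepressor complexes, was measured from few molecules. It had 12, 3 and 6 UMIs in SykY317F LZ and 30, 23 and 14 UMIs in SykY317F DZ. The levels were 35.8, 16.9 and 37.6 CPM in SykY317F LZ, 21.8, 15.5 and 38.7 CPM in SykY317F DZ, 17.6, 12.9, 42.2 and 19.6 CPM in WT LZ, and 19.4, 17.9, 19.6 and 17.0 CPM in WT DZ. The WT DZ libraries were tightly grouped at 18.5 ± 1.26 CPM (SD, n = 4), and every other group overlapped them. The log2 fold change of SykY317F over WT, averaged over both zones, was 0.41 ± 0.33 (adjusted p = 0.712), and from read counts, chosen as an alternative to UMIs, it turned to -0.12.

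Kdm1a (chromosome 4, 136550540 to 136602723, minus strand), the histone H3 lysine 4 demethylase of the CoREST complex, which mice need to form GCs, had its highest mean in SykY317F LZ. The values there were 59.7, 39.5 and 113 CPM, from 20, 7 and 18 UMIs, against 47.9, 37.0 and 35.9 CPM in SykY317F DZ. They were 29.6, 33.6, 48.0 and 28.9 CPM in WT LZ and 41.4, 35.1, 32.9 and 27.6 CPM in WT DZ. SykY317F LZ replicates 1 and 4 were above all other libraries, and replicate 2 lay within the range of the other groups. The means were 70.7 ± 37.9 CPM in SykY317F LZ, 40.3 ± 6.63 CPM in SykY317F DZ, 35 ± 8.89 CPM in WT LZ and 34.3 ± 5.70 CPM in WT DZ (SD, n = 3, 3, 4 and 4), and the last 3 differed by less than their spread. SykY317F LZ over WT LZ had a log2 fold change of 1.01 ± 0.36 (unadjusted p = 0.01), which did not pass (edgeR, adjusted p = 0.347), and 0.56 without SykY317F LZ replicate 4. In WT the zones gave 0.01 with a 95% interval of -0.66 to 0.69. Kdm1a overlaps the protein-coding gene Luzp1 on the opposite strand, so its count is uncertain where counting did not use strand.

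Arid1a (chromosome 4, 133679008 to 133756769, minus strand), the subunit that defines the canonical BAF remodeller of nucleosomes, had the smallest spread between libraries of the 8 regulators for which it was ranked. It stood at 203, 164 and 226 CPM in SykY317F LZ, 259, 226 and 213 CPM in SykY317F DZ, 206, 209, 213 and 200 CPM in WT LZ, and 233, 256, 237 and 219 CPM in WT DZ. The WT LZ libraries lay below all WT DZ libraries, and the SykY317F zones overlapped. The WT zones did not overlap for 5.76% of all tested genes. The WT means were 207 ± 5.54 CPM in LZ and 236 ± 15.1 CPM in DZ (SD, n = 4 each), a log2 fold change of -0.19 with a 95% interval of -0.59 to 0.21 (edgeR, adjusted p = 0.824). SykY317F over WT, averaged over both zones, gave -0.04 with a 95% interval of -0.36 to 0.28.

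**Figure D3:**
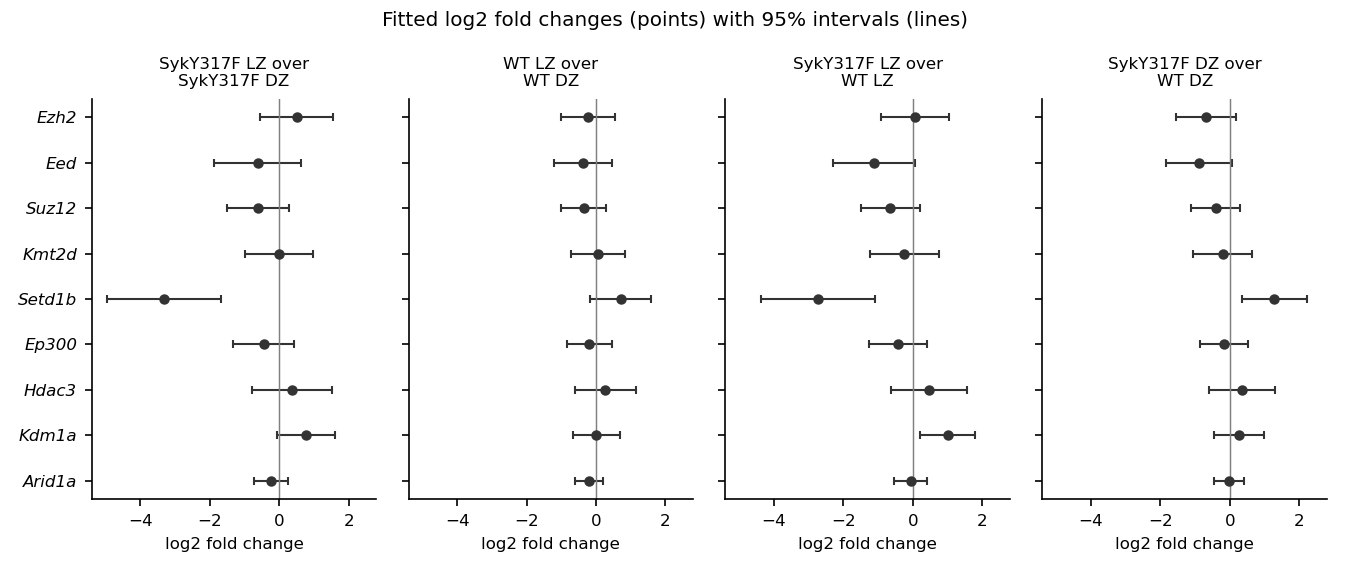
Fitted log2 fold changes (horizontal axes) of the 9 regulators in 4 comparisons, with points for the estimates and lines for 95% intervals. The intervals of Setd1b lie clear of 0 in 3 panels and that of Kdm1a in SykY317F LZ over WT LZ, before adjustment over all 7999 genes, after which 0 of 9 passed.

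How far the regulators varied over the 14 libraries, groups ignored, spanned nearly the whole range of the 5442 genes with at least 20 UMIs on average. The SD of log2 CPM was 0.163 for Arid1a, and 0.276% of those genes had an SD no larger. It was 0.495 for Ep300, 0.506 for Kdm1a, 0.513 for Suz12 and 0.553 for Ezh2, all near the middle of the range. It was 0.641 for Kmt2d, 0.966 for Eed and 1.48 for Setd1b, the last at the 99.0 percentile. Hdac3 fell under that minimum of UMIs. Counting noise is larger for genes of low count, so these values also carry each gene's depth.

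**Figure D4:**
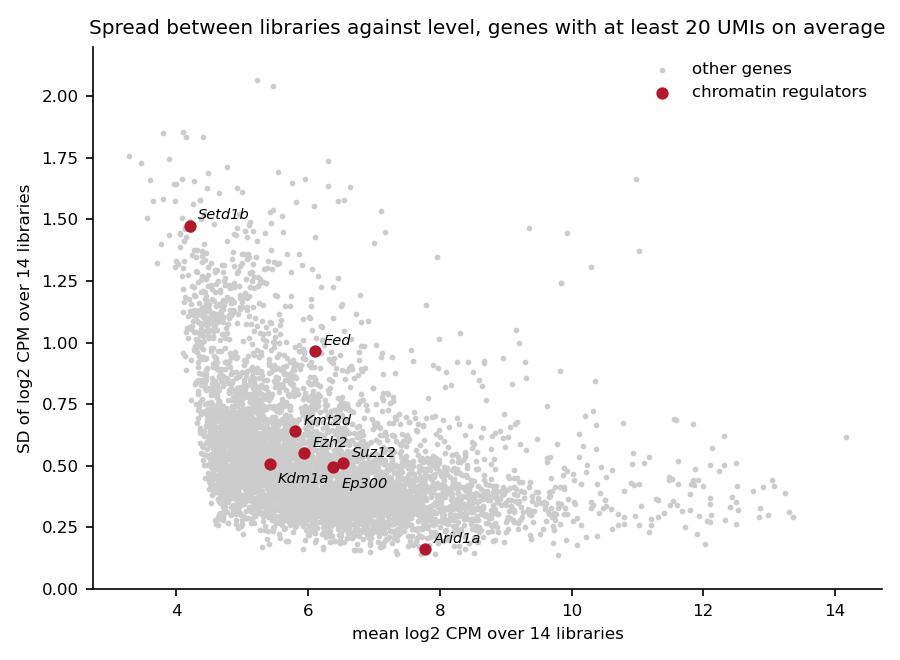
SD of log2 CPM over the 14 libraries (vertical axis) against mean log2 CPM (horizontal axis) for 5442 genes with at least 20 UMIs on average, with the 8 regulators among them in red. Arid1a, at an SD of 0.163, lies at the lower edge of the cloud for its level, and Setd1b, at 1.48, near the upper end.

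The partners of the 9 regulators were measured from 8 lists by complex and enzyme class, with 117 genes in all, of which 95 were tested. None of the 95 passed in any of the 7 comparisons (edgeR), where 0% to 1.43% of all tested genes did. For LZ over DZ, averaged over both genotypes, 12 of 95 or 12.6% had an unadjusted p under 0.05, against 14.3% of all genes, and the median log2 fold change was 0.01 against -0.03 over all genes. For SykY317F over WT, averaged over both zones, 6 of 95 or 6.32% did, against 10.1% of all genes.

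By complex, the named members are those with the smallest p between the zones, averaged over both genotypes, and are given as log2 fold changes with SE, beside 46.3% of all genes above 0. Among 7 tested PRC2 partners, 4 above 0 and 3 below, Phf19, a reader that guides PRC2 to chromatin, had -0.61 ± 0.24 (adjusted p = 0.227) and its relative Phf1 had 0.50 ± 0.23. Among 18 genes of PRC1, the Polycomb complex that ubiquitinates histone H2A, 9 were above 0 and 9 below. Bcor, a corepressor of BCL6 that also forms a PRC1 complex, had 0.63 ± 0.20 (adjusted p = 0.132), and Cbx7, a reader of the PRC2 mark, had -0.43 ± 0.22. Among 16 genes of the complexes that methylate histone H3 lysine 4, 7 above 0 and 9 below, Pagr1a, a subunit of the Kmt2c and Kmt2d complexes, had -0.46 ± 0.20 and the methyltransferase Kmt2a had -0.36 ± 0.16. Among 19 BAF genes, 8 above 0 and 11 below, the ATPase Smarca4 had -0.62 ± 0.21 (adjusted p = 0.151) and the core subunit Smarcd1 had 0.56 ± 0.26.

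Among 16 genes of the list of deacetylases and corepressors, 11 above 0 and 5 below, the deacetylase Hdac8 had -0.80 ± 0.37, and -1.42 without SykY317F LZ replicate 1. Among 10 acetyltransferases, 4 above 0 and 6 below, Kat6a had 0.53 ± 0.25. Kat2b had 0 UMIs in SykY317F LZ, 18 in SykY317F DZ, 27 in WT LZ and 52 in WT DZ, and no fold is given. Among 7 CoREST genes, 4 above 0 and 3 below, Zmym3 had 0.47 ± 0.27, and 0.25 without SykY317F LZ replicate 4. Kdm1b, the demethylase related to Kdm1a, had 0 UMIs in SykY317F LZ, 19 in SykY317F DZ, 24 in WT LZ and 58 in WT DZ. Mean levels in SykY317F DZ, WT LZ and WT DZ were 4.3, 4.78 and 12.1 CPM for Kdm1b and 4.77, 5.44 and 11.2 CPM for Kat2b. In a SykY317F LZ library 3 UMIs make 8.95 to 18.8 CPM, so 0 UMIs of either gene lies near the floor there. The 2 tested demethylases were Kdm6b, which removes the PRC2 mark, at 0.51 ± 0.44, and Kdm5c at 0.09 ± 0.53. Leaving out 1 library at a time put Kdm6b at 0.24 (without SykY317F LZ replicate 4) to 1.18 (without SykY317F DZ replicate 2).

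Genes that these enzymes are reported to control in GC B cells were described from 2 further lists. Of 5 reported EZH2 targets, 2 were tested and 0 passed. Irf4, a transcription factor of plasma cell fate, had a log2 fold change of LZ over DZ, averaged over both genotypes, of 0.81 ± 0.47, and without replicate 2 of SykY317F LZ it was 0.32, while without replicate 2 of SykY317F DZ it was 1.48. Cdkn1a, a cell cycle inhibitor, had 3 UMIs in SykY317F LZ, 31 in SykY317F DZ, 41 in WT LZ and 31 in WT DZ, too few for a firm value. Of 12 reported targets of CREBBP and HDAC3, which include genes of antigen presentation, 11 were above 0 and 1 below, with a median of 0.43 against -0.03 over all genes. Cd40 and Cd86 of this list are also among the LZ markers summed above, and Bcl6 is among the GC B cell markers. The list is thus not separate from the markers of zone, and what the enzymes contribute to its values was not tested. Cd40, the receptor for T cell help, rose in LZ by 0.75 ± 0.16 on the log2 scale (adjusted p = 0.0191), and H2-DMb2, a chaperone that loads peptide on MHC class II, rose by 1.41 ± 0.31 (adjusted p = 0.0215). Bcl6, the repressor that holds the GC programme and recruits HDAC3, fell by 0.77 on the log2 scale (SE 0.18, adjusted p = 0.0359). Of all tested genes, 0.55% rose and 0.875% fell in this comparison. The Cd40 call ended without SykY317F LZ replicate 1 or without SykY317F DZ replicate 1 or 4, and the H2-DMb2 call without SykY317F LZ replicate 2, SykY317F DZ replicate 1 or WT LZ replicate 1 or 2. The Bcl6 call ended without any one of SykY317F LZ replicates 1 and 2, SykY317F DZ replicates 1 and 2, WT LZ replicates 1 and 2, and WT DZ replicates 3 and 4. With a replicate block within genotype all 3 calls ended (adjusted p = 0.11 for Cd40, 0.103 for H2-DMb2 and 0.111 for Bcl6), and 28 genes were called in place of 114. From read counts they ended as well (adjusted p = 0.0948 for Cd40, 0.375 for H2-DMb2 and 0.193 for Bcl6), and H2-DMb2 was at 0.85 instead of 1.41. Of the 7 naive and memory B cell markers, whose sums are given with Setd1b, 5 were above 0 in this comparison (median 0.74) and 2 passed, Ccr6 (adjusted p = 0.025) and Fcer2a (adjusted p = 0.0434). Their part in these calls was not tested.

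Cd40 averaged 271 ± 53.0 CPM in SykY317F LZ, 183 ± 18 CPM in SykY317F DZ, 346 ± 50.5 CPM in WT LZ and 180 ± 31.9 CPM in WT DZ (SD, n = 3, 3, 4 and 4). Bcl6 averaged 141 ± 49.9 CPM in SykY317F LZ, 269 ± 48.8 CPM in SykY317F DZ, 261 ± 39.6 CPM in WT LZ and 391 ± 75.6 CPM in WT DZ. In the same comparison Ep300, at -0.32 ± 0.24, and Hdac3, at 0.32 ± 0.33 with a 95% interval of -0.41 to 1.04, did not pass. Whether these enzymes differed from the genes named as targets of CREBBP and HDAC3 was not tested.

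Since Ezh2 is known as a gene of dividing cells, the cell cycle was described beside it. Of 30 listed cell cycle genes 28 were tested. In LZ over DZ, averaged over both genotypes, 25 were below 0 and 3 above, where 46.3% of all genes were above. Of the 28, 4 passed and fell, against 0.875% of all genes. The median log2 fold change was -0.51. The median was -0.40 with Bub1 and Ccne2, at 0 UMIs in SykY317F LZ, set at 3 UMIs for that group. The anaphase activator Cdc20 fell (log2 fold change -1.40 ± 0.24, edgeR, adjusted p = 0.00614), as did cyclin Ccnb2 (-1.90 ± 0.34, adjusted p = 0.00848), the ubiquitin-conjugating enzyme Ube2c (-1.31 ± 0.25, adjusted p = 0.0119) and the centromeric histone Cenpa (-0.87 ± 0.18, adjusted p = 0.0178). The Cenpa call ended without SykY317F LZ replicate 1 or without SykY317F DZ replicate 1 or 4 (adjusted p = 0.0526 to 0.0636), and with a replicate block within genotype (adjusted p = 0.0854). The Ccnb2 call ended from read counts (adjusted p = 0.0685). Ezh2 gave 0.14 ± 0.29 in the same comparison, and Mki67, a marker of proliferation, gave -0.56 ± 0.24 (adjusted p = 0.272). Whether Ezh2 differed from the cell cycle genes was not tested. In SykY317F over WT, averaged over both zones, all 28 were below 0 (median -0.62), where 44.7% of all genes were above, and 20 had an unadjusted p under 0.05, against 10.1% of all genes, while 0 passed. In the same comparison all 7 markers of naive and memory B cells were above 0 (median 0.93), 3 with an unadjusted p under 0.05 and 0 passing. The cell cycle list summed to 1990 to 2550 CPM in SykY317F LZ, 2740 to 3710 CPM in SykY317F DZ, 2830 to 5080 CPM in WT LZ and 3960 to 4910 CPM in WT DZ, and the part of either list in the Eed and Suz12 values was not tested.

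**Figure D5:**
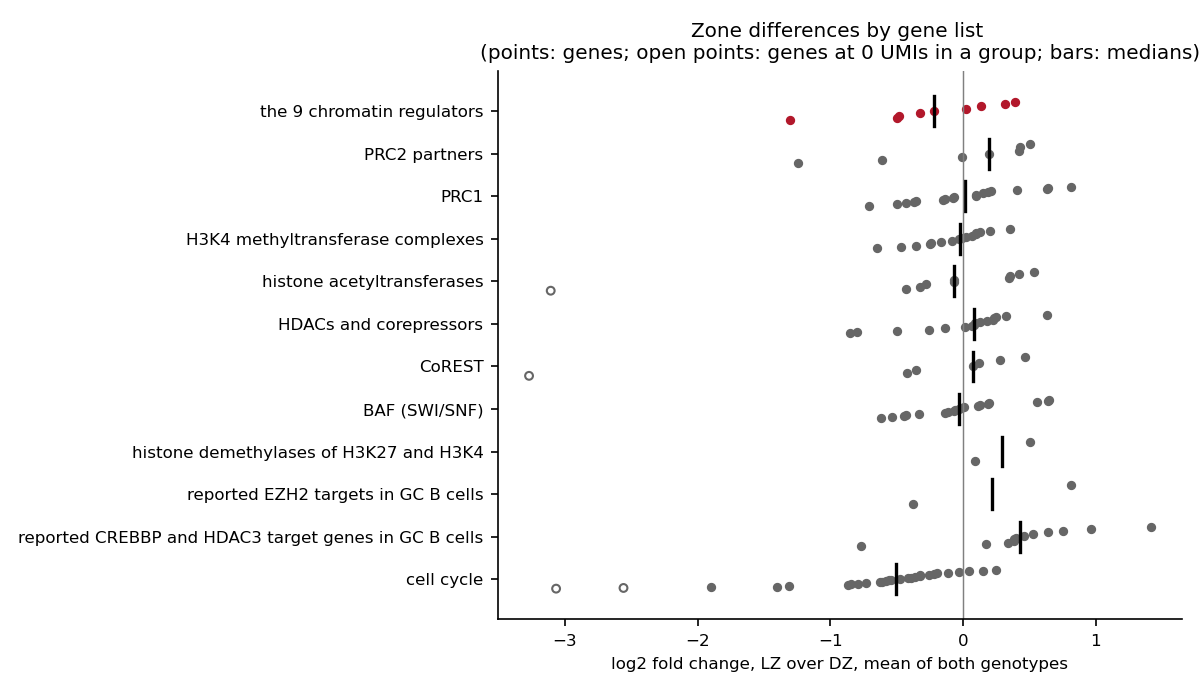
Log2 fold changes of LZ over DZ, averaged over both genotypes (horizontal axis), for the 9 regulators (red) and the tested genes of 11 lists (grey), with black bars for medians. Open points are genes at 0 UMIs in SykY317F LZ, whose fitted values are no bound. The 9 regulators have a median of -0.22, the reported CREBBP and HDAC3 targets 0.43 and the cell cycle list -0.51.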

How the data were processed

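Per the labels' protocols, mRNA of sorted cells was captured on oligo(dT) beads and sequenced by a variation of MARS-seq, which tags transcripts with UMIs. The submitters' processing notes name the aligner STAR 2.4.2a, the build mm10, cutadapt, HTSeq, DESeq and DESeq2, without saying which step each served. How reads were assigned to genes is not given in the sources used here. Deposited UMI counts (9969 genes) and read counts (11914 genes) are whole numbers per gene, not normalized. UMI counts were analysed, with read counts as an alternative. The authors' deposited log2 fold changes and adjusted p-values are quoted where named. Another 28 deposited per-sample columns, of normalised signal and regularised log2 values by the authors, were not used.

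Genes were filtered with filterByExpr (7999 left, 99.3% of UMIs), TMM-scaled and fitted in edgeR 4.0.16 (R 4.3.3) with a robust quasi-likelihood model of the 4 groups (biological coefficient of variation 32.3%). P-values were adjusted over all 7999 genes of a contrast, and 95% intervals of fold changes use the SE and 10 degrees of freedom. CPM are TMM-scaled. Steps were tested on simulated data. Alternatives were DESeq2 size factors, library size only, DESeq2 1.42.0, voom in limma 3.58.1, no filter and a stricter one (20 UMIs in 3 libraries), the groups of a contrast alone, replicate blocks, leaving out each library, and read counts. Leaving out the 4 libraries with the fewest UMIs per read was added after seeing the data.

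The regulators and lists were chosen with earlier results of these data known. Named are all regulators, list members past the threshold, the 2 with the smallest p per list between zones over both genotypes, and the 3 genes most like Ezh2 (log2 CPM, prior count 2), and 1 list member that this rule names is not reported here. Gene positions come from the GENCODE annotation of GRCm38 (mm10). Of the 9 genes, 7 overlap another annotated gene, 5 on the opposite strand.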

Additional observations from a re-analysis of the deposited data

How the results depend on the processing

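None of the 9 regulators passed under any of 164 alternatives over the 7 comparisons, and of 1474 refitted fold changes 86 had the opposite sign, none of them of a called gene and none with a fitted size above 0.617 (log2). The fold changes of Setd1b kept their sign in all alternatives, with adjusted p from 0.0547 to 0.316 between the SykY317F zones. Low UMI totals limit the SykY317F LZ values most. With library size as the only scaling, the all-gene median between the SykY317F zones was -0.19, against -0.04 on the TMM scale used in the text. The causes of the shifts below were not tested.

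Counts of all genes called moved with the test. Library size only gave 9 for SykY317F LZ over DZ and 1 for SykY317F over WT in LZ. DESeq2's Wald test gave 97 for WT LZ over DZ, 42 for SykY317F LZ over DZ, 235 for LZ over DZ in both genotypes, 43 for SykY317F over WT in LZ, 2 in DZ and 47 in both zones. Voom gave 292 for WT LZ over DZ, 200 for LZ over DZ in both genotypes and 7 for SykY317F over WT in both zones. The groups of a contrast alone gave 6 for WT LZ over DZ and 1 for SykY317F LZ over DZ. Read counts gave 0 for WT LZ over DZ, 20 for SykY317F LZ over DZ, 49 for LZ over DZ in both genotypes, 54 for SykY317F over WT in LZ and 10 in both zones. Without the 4 libraries with the fewest UMIs per read, WT LZ over DZ gave 4. Leaving out 1 library at a time gave 1 to 26 for WT LZ over DZ, 0 to 10 for SykY317F LZ over DZ, 42 to 152 for LZ over DZ in both genotypes, 0 to 5 for SykY317F over WT in LZ and 0 to 5 in both zones.

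Log2 fold changes of opposite sign were as follows. DESeq2 size factors and the stricter filter put Kmt2d at 0.0031 and 0.026 for SykY317F LZ over DZ. Library size only put Kmt2d at -0.041 for LZ over DZ in both genotypes, Ezh2 at -0.077 for SykY317F over WT in LZ, Arid1a at 0.0066 in DZ and Hdac3 at -0.031 for the difference of zone effects. DESeq2's Wald test put Kmt2d at 0.020 for SykY317F LZ over DZ and Arid1a at 0.0045 for SykY317F over WT in DZ. Voom put Kmt2d at -0.073 and Kdm1a at -0.041 for WT LZ over DZ, Ezh2 at -0.051 and Kmt2d at -0.13 for LZ over DZ in both genotypes, and Suz12 at 0.025 for the difference of zone effects. The groups of the contrast alone put Arid1a at 0.022 for SykY317F over WT in DZ. Without the 4 libraries with the fewest UMIs per read, Kmt2d was at 0.025, Ep300 at 0.11 and Arid1a at 0.067 there. Read counts put Kdm1a at -0.082 for WT LZ over DZ, Kmt2d at -0.088 for LZ over DZ in both genotypes, Hdac3 at -0.056 and Arid1a at 0.14 for SykY317F over WT in LZ, Hdac3 at -0.19 and Kdm1a at -0.039 in DZ, and Hdac3 at -0.12 and Arid1a at 0.032 in both zones. For the difference of zone effects they put Suz12 at 0.026, Ep300 at 0.034 and Arid1a at 0.22, and Cdkn1a was at 0.38 for LZ over DZ in both genotypes.

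Leaving out 1 library at a time gave, for WT LZ over DZ, Ezh2 at -0.48 to 0.072, Kmt2d at -0.18 to 0.19, Hdac3 at -0.13 to 0.47 and Kdm1a at -0.15 to 0.11. For SykY317F LZ over DZ it gave Eed at -1.50 to 0.014 and Kmt2d at -0.61 to 0.43, and for LZ over DZ in both genotypes Kmt2d at -0.28 to 0.24, Kdm5c at -0.17 to 0.41 and Cdkn1a at -3.02 to 0.057. For SykY317F over WT it gave Ezh2 at -0.20 to 0.29, Kmt2d at -0.87 to 0.11 and Arid1a at -0.17 to 0.016 in LZ, Kmt2d at -0.64 to 0.0037, Ep300 at -0.35 to 0.082 and Arid1a at -0.11 to 0.037 in DZ, and Arid1a at -0.096 to 0.0064 in both zones. For the difference of zone effects it gave Eed at -1.12 to 0.39, Kmt2d at -0.66 to 0.38, Ep300 at -0.65 to 0.11, Hdac3 at -0.17 to 0.50 and Arid1a at -0.15 to 0.036.

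Whether replicate numbers pair the libraries is not stated in the labels, and the check left it undecided, so the main fit has no block: of 6 same-numbered LZ and DZ pairs of a genotype, 4 had correlated deviations from their group means above 0.1, over a range of -0.57 to 0.243. With the number as a replicate block, SykY317F LZ over DZ called 1 gene and Ezh2 was at 0.11 for SykY317F over WT in both zones. With a replicate block within genotype, WT LZ over DZ called 1 gene, SykY317F LZ over DZ 0 and LZ over DZ in both genotypes 28, and the calls of Bcl6, Cd40, Cenpa and H2-DMb2 ended. That block put Ezh2 at 0.20, Suz12 at 0.0077 and Kmt2d at -0.11 for WT LZ over DZ, Kmt2d at 0.0028 for SykY317F LZ over DZ and at -0.055 for LZ over DZ in both genotypes, and Kmt2d at 0.12 and Hdac3 at -0.0016 for the difference of zone effects.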
